A study of Homo sapiens and Mus musculus with 24 samples.

Results

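The 4 Hox clusters of the mouse genome were almost empty of hemogen, BRG1 and H3K27ac peaks in day 14.5 fetal liver. The members described here are the peaks that overlap a window around Hoxa, Hoxb, Hoxc or Hoxd by at least 1 bp, in any of the 12 deposited lists. There were 5 such peaks at 4 positions, out of 564660 peaks in all lists. Both counts take a site once for each list that calls it. The windows make up 0.0233% of the span between the first and last peaks of the chromosomes. The windows cover 595 kb and were set to hold the Hox genes, 38 of which were listed by name.

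Hox genes encode homeodomain transcription factors that give cells their position along the head-to-tail axis. Within a cluster they lie in a fixed order: low-numbered genes such as Hoxb1 and Hoxd1 at the end that acts towards the head (the anterior end), and high-numbered genes such as Hoxa13 and Hoxd13 at the end that acts towards the tail (the posterior end). In blood formation Hoxa9, Hoxa10 and Hoxb4 are known for roles in stem cells and early progenitors, and their expression is known to fall as cells mature. Silent Hox clusters are a textbook target of Polycomb repression, which was not measured here.

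The samples were fetal livers of embryos at day 14.5, when the organ makes red blood cells. Groups of 2 libraries each came from wild-type (WT) livers precipitated with an HA antibody for hemogen, with an antibody to BRG1 (the ATPase of BAF remodelling complexes) or with one to acetylated histone H3 lysine 27 (H3K27ac, a mark of active promoters and enhancers), and from hemogen knockout (KO) livers precipitated for BRG1. Each library had a peak list and each group 1 further list. How the HA tag was introduced, how the knockout was made, and whether libraries came from separate animals are not stated in the labels, so spreads between libraries may be technical. Input libraries and the K562 cell line libraries were not analysed here. Fetal liver holds several cell types, and a locus active in few cells and one weakly active in many cannot be told apart.

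The library lists held 53063 and 42871 peaks for hemogen, 69883 and 45548 for H3K27ac, 26330 and 21167 for WT BRG1, and 3209 and 5602 for KO BRG1. The lists call peaks at the loci that define the tissue: the beta-globin locus held 29 and 31 hemogen peaks, 22 and 15 H3K27ac peaks, 22 and 18 WT BRG1 peaks, and 1 and 1 KO BRG1 peaks in libraries 1 and 2. At Alb, the albumin gene of hepatocytes, the 8 library lists held 1 peak in all, of hemogen in library 2. The hemogen group list held 4 there, 13.3 per 100 kb against 3.07 over all chromosomes, and the other 3 group lists held 0. Peak numbers run without a gap through the 8 library lists, and in the group lists 2 to 14 numbers are missing, all between chromosomes, so no row is missing from the windows.

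In the 8 library lists the 4 windows held 1 peak. It was a hemogen peak in library 1. Peak names inside the hemogen lists carry the numbers 3 and 4 for the libraries that the labels call 1 and 2, and 34 for their group list; the libraries are numbered here as the labels number them. Hemogen library 2, both H3K27ac libraries, both WT BRG1 libraries and both KO BRG1 libraries held 0. At the mean density of each list over the 19 autosomes and chromosome X, a stretch of 595 kb would hold 12.4 and 9.99 hemogen peaks, 16.3 and 10.6 H3K27ac peaks, 6.14 and 4.93 WT BRG1 peaks, and 0.747 and 1.3 KO BRG1 peaks in libraries 1 and 2. No region found in both libraries of a group lay in a window, against 25631 hemogen, 25305 H3K27ac, 13213 WT BRG1 and 1543 KO BRG1 regions elsewhere.

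Peaks cluster along chromosomes, so an empty window is not rare. The chromosomes were cut into tiles of 115 kb, the length of the shortest window, and the share of tiles with at least 1 peak was taken as background. For hemogen, 40.1% of tiles held a peak in library 1, 36.5% in library 2 and 46.2% in the group list; the windows with a peak were 1 of 4, 0 of 4 and 2 of 4. For H3K27ac the shares were 36.5%, 30.3% and 47.1%, against 0, 0 and 1 of 4 windows. For WT BRG1 they were 26.5%, 24.1% and 30.1%, and for KO BRG1 9.36%, 13.9% and 21.7%, with 0 of 4 windows in each of these 6 lists. In tiles of 200 kb, the length of the Hoxb window, the shares were 48.9%, 45.6% and 54.4% for hemogen, 43.8%, 38.2% and 53.2% for H3K27ac, 35.1%, 32.4% and 38.7% for WT BRG1, and 14.5%, 20.5% and 29.8% for KO BRG1. At either length most tiles held no BRG1 peak, so against this background 4 windows without BRG1 do not by themselves set the Hox clusters apart. The tiles were not matched to the windows in gene content, so windows dense in genes were not compared with their like. The KO background is low enough that an empty window there carries little information.

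The Hoxa window spans chromosome 6 from 52140000 to 52275000 (all positions 1-based, mm10), and runs from the anterior to the posterior genes with rising coordinate. It held no peak in any library list. The hemogen group list placed 1 peak at chr6:52183601-52183856, of 256 bp, on the anterior side of the window midpoint. The authors' fold over local background there was 2.89, against a list median of 3.33. Its −log10 p of 5.87 lay at percentile 28.6 of the list. Hoxa9 and Hoxa10, which promote self-renewal of early blood cells, lie in this window, which held 0 H3K27ac peaks in the 3 WT lists and 0 BRG1 peaks in the 3 WT and 3 KO lists.

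The Hoxb window spans chromosome 11 from 96180000 to 96380000, with the anterior genes at the high coordinates. It held 4 of the 5 peaks. A hemogen peak was called at chr11:96314689-96314929 in library 1 and at chr11:96314625-96314891 in the group list, and not in library 2. Its fold was 2.99 in library 1 and 2.68 in the group list, with −log10 p of 3.95 and 4.22. These values sat at the percentiles 2.03 and 5.91 of their lists, near the weakest peaks the authors kept. The peak lay on the anterior side, 32.6% of the way from the anterior to the posterior edge of the window, the side that holds Hoxb4.

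The H3K27ac group list held 2 narrow peaks in the Hoxb window, at chr11:96231443-96231772 (330 bp) and chr11:96245312-96245506 (195 bp). Their folds were 3.18 and 2.9, against a list median of 3.26, and their −log10 p of 5.47 and 5.94 lay at percentiles 29.1 and 37.6. Both lay on the posterior side, in the part of the window that runs towards Hoxb13. Neither H3K27ac library list had a peak there. The nearest hemogen peak of any list was 82.9 kb from the first and 69.1 kb from the second, and the nearest WT BRG1 peak 155 kb and 169 kb away, so no position in any Hox window carried more than 1 of the 3 marks.

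The Hoxc window (chromosome 15 from 102900000 to 103045000, anterior genes at the high coordinates) and the Hoxd window (chromosome 2 from 74660000 to 74775000, oriented likewise) held 0 peaks in all 12 lists. This covers the genes from Hoxc4 to Hoxc13 and from Hoxd1 to Hoxd13.

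**Figure D1:**
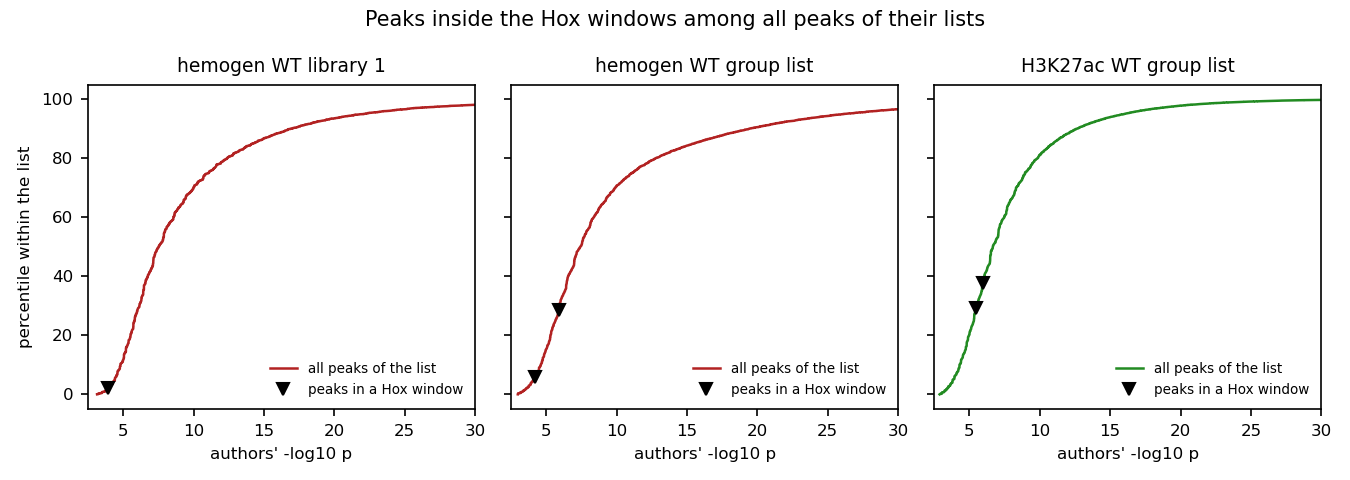
Cumulative percentile (vertical axis) against the authors' −log10 p (horizontal axis, shown up to 30) for all peaks of the 3 lists that hold a peak in a Hox window. Triangles mark the 5 peaks inside the windows, which lie between percentiles 2.03 and 37.6 of their lists.

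Between the ends of the clusters the numbers were too small for a contrast. The 3 hemogen peaks (2 positions) lay on the anterior side of Hoxa and Hoxb, and the 2 H3K27ac peaks on the posterior side of Hoxb. Over the 8 library lists this amounts to 1 anterior and 0 posterior peaks. All 5 peaks had a −log10 q below 5.

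In the 8 library lists the longest empty stretch holding or touching each window was longer than that window. In the group lists it was shorter at Hoxb, whose window is 200 kb long, with 173 kb for hemogen and less than that for H3K27ac. The longest stretch without a peak that holds or touches the Hoxa window was 625 and 589 kb in the hemogen libraries, 597 and 627 kb in the H3K27ac libraries and 1167 and 1168 kb in the WT BRG1 libraries. The WT BRG1 group list had only 625 kb there, with a peak 126 kb beyond the anterior end. At Hoxd the corresponding stretch was 246 kb in both hemogen and both WT BRG1 libraries, and 205 and 246 kb for H3K27ac. Hoxb had 701 kb in both WT BRG1 libraries, and 238 and 636 kb for hemogen, the first being shortened by the single peak of library 1. At Hoxc it was 498 and 590 kb for WT BRG1. In KO BRG1 libraries 1 and 2 the stretches were 1243 and 702 kb at Hoxa, 894 and 914 kb at Hoxb, 569 and 762 kb at Hoxc, and 1124 and 1079 kb at Hoxd. By length such stretches are common: between 50.3% and 88.6% of the peak-free length of a library list lay in gaps at least as long. By number they are few in the WT lists. In WT BRG1 library 2, 526 of 21145 gaps were at least as long as that at Hoxa and 1815 as that at Hoxd. In KO BRG1 library 1 these were 532 and 565 of 3185 gaps.

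**Figure D2:**
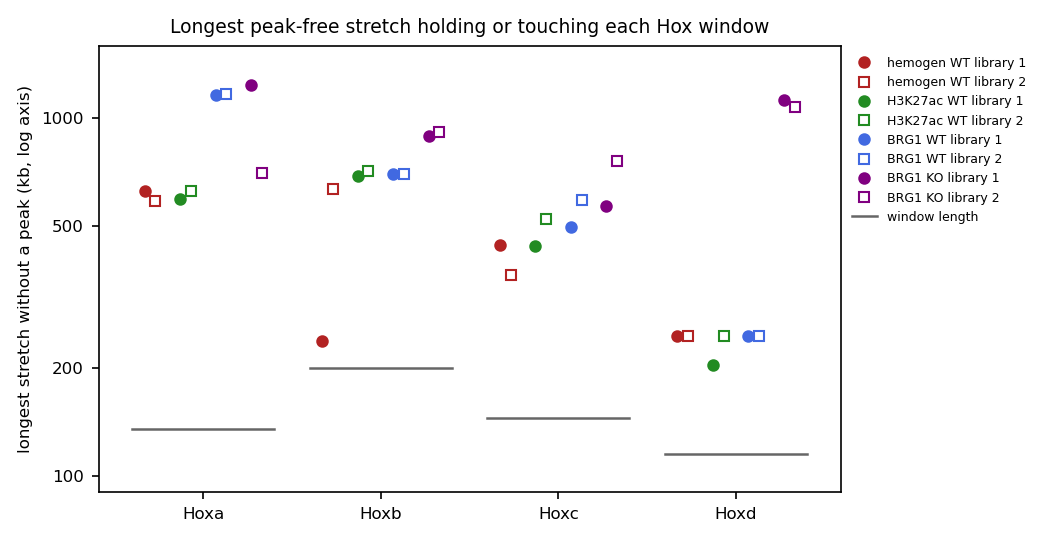
Length of the longest peak-free stretch holding or touching each Hox window (vertical log axis, kb) in the 8 library lists, with filled circles for library 1 and open squares for library 2 and grey lines for the window length. Every point lies above its window's length, from 205 kb at Hoxd to 1243 kb at Hoxa.

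In all 8 library lists peaks were denser between 100 and 250 kb outside the windows than within 50 kb. Within 50 kb outside the 4 windows there were 0 and 2 hemogen, 1 and 0 H3K27ac, 0 and 0 WT BRG1 and 0 and 0 KO BRG1 peaks in libraries 1 and 2. Between 100 and 250 kb outside, the density was 4.67 and 4.17 hemogen peaks per 100 kb, 3.75 and 2.33 for H3K27ac, and 2.67 and 2.08 for WT BRG1. Each of these 6 values was above the mean of its list over all chromosomes, which was 2.08 and 1.68, 2.74 and 1.78, and 1.03 and 0.829. For KO BRG1 the density there was 0.333 and 0.667 per 100 kb, against 0.126 and 0.219 over all chromosomes. Farther out, between 250 and 500 kb, the density was higher again for H3K27ac (6.7 and 5.1) and WT BRG1 (3 and 2.15), but not for hemogen (4.65 and 4.05), and KO BRG1 had 0.35 and 0.5. Taken over the 4 clusters, the wider surroundings were richer in peaks than the chromosomes, and the windows poorer. This did not hold at each cluster. At Hoxa and Hoxd the 500 kb flanks were below the chromosome mean in the H3K27ac and WT BRG1 libraries. H3K27ac library 1 held 1 and 7 peaks beyond the anterior and posterior ends of Hoxa, and 2 and 2 at Hoxd. Hemogen library 2 held 8 and 11 at Hoxa, the second above its mean.

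**Figure D3:**
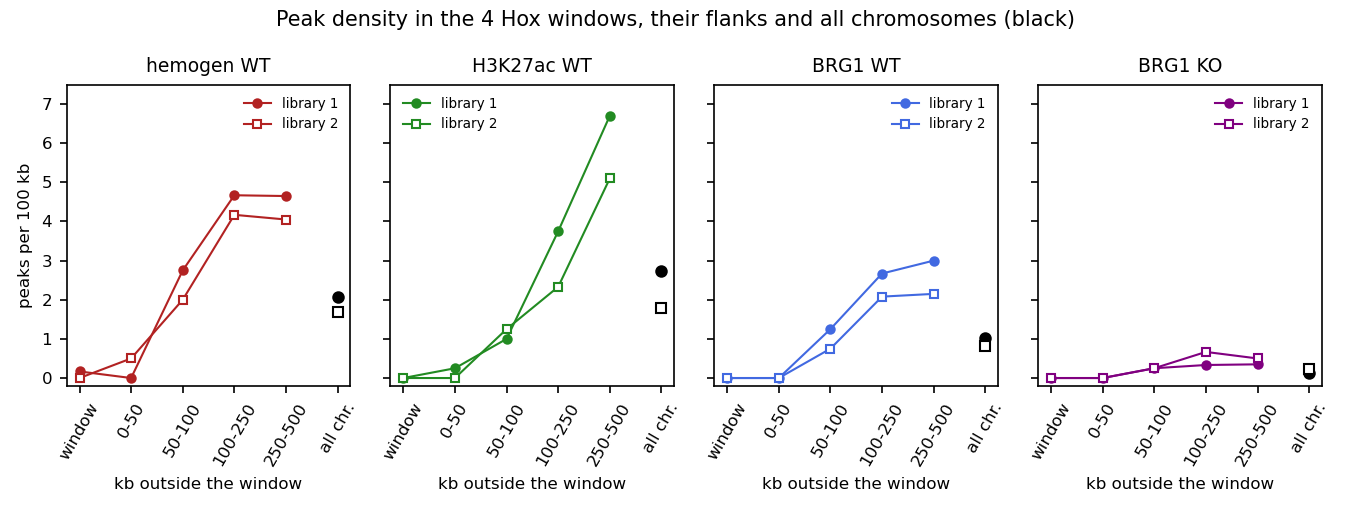
Peaks per 100 kb (vertical axis) in the 4 Hox windows together, in 4 distance ranges outside them and over all chromosomes (black), with filled circles for library 1 and open squares for library 2. In each library the window value lies between 0 and 0.168, below the value over all chromosomes.

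The neighbourhoods differed between clusters and between their sides. Beyond the posterior end of Hoxb, the 500 kb flank held 47 and 39 hemogen, 100 and 90 H3K27ac and 40 and 30 WT BRG1 peaks in libraries 1 and 2. Beyond its anterior end, the flank held 7 and 6, 11 and 7, and 5 and 6. Hoxc was flanked by peaks on both sides, with 24 and 17 WT BRG1 peaks beyond the anterior end and 19 and 13 beyond the posterior end. Hoxa and Hoxd lay in sparser surroundings: WT BRG1 had 0 and 0 peaks beyond the anterior and 4 and 2 beyond the posterior end of Hoxa, and 2 and 2 against 3 and 1 at Hoxd. The WT BRG1 group list held 2 peaks beyond the anterior and 6 beyond the posterior end of Hoxa. Hemogen at Hoxd was called mostly on the anterior side, with 10 and 7 peaks against 1 and 1 on the posterior side.

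**Figure D4:**
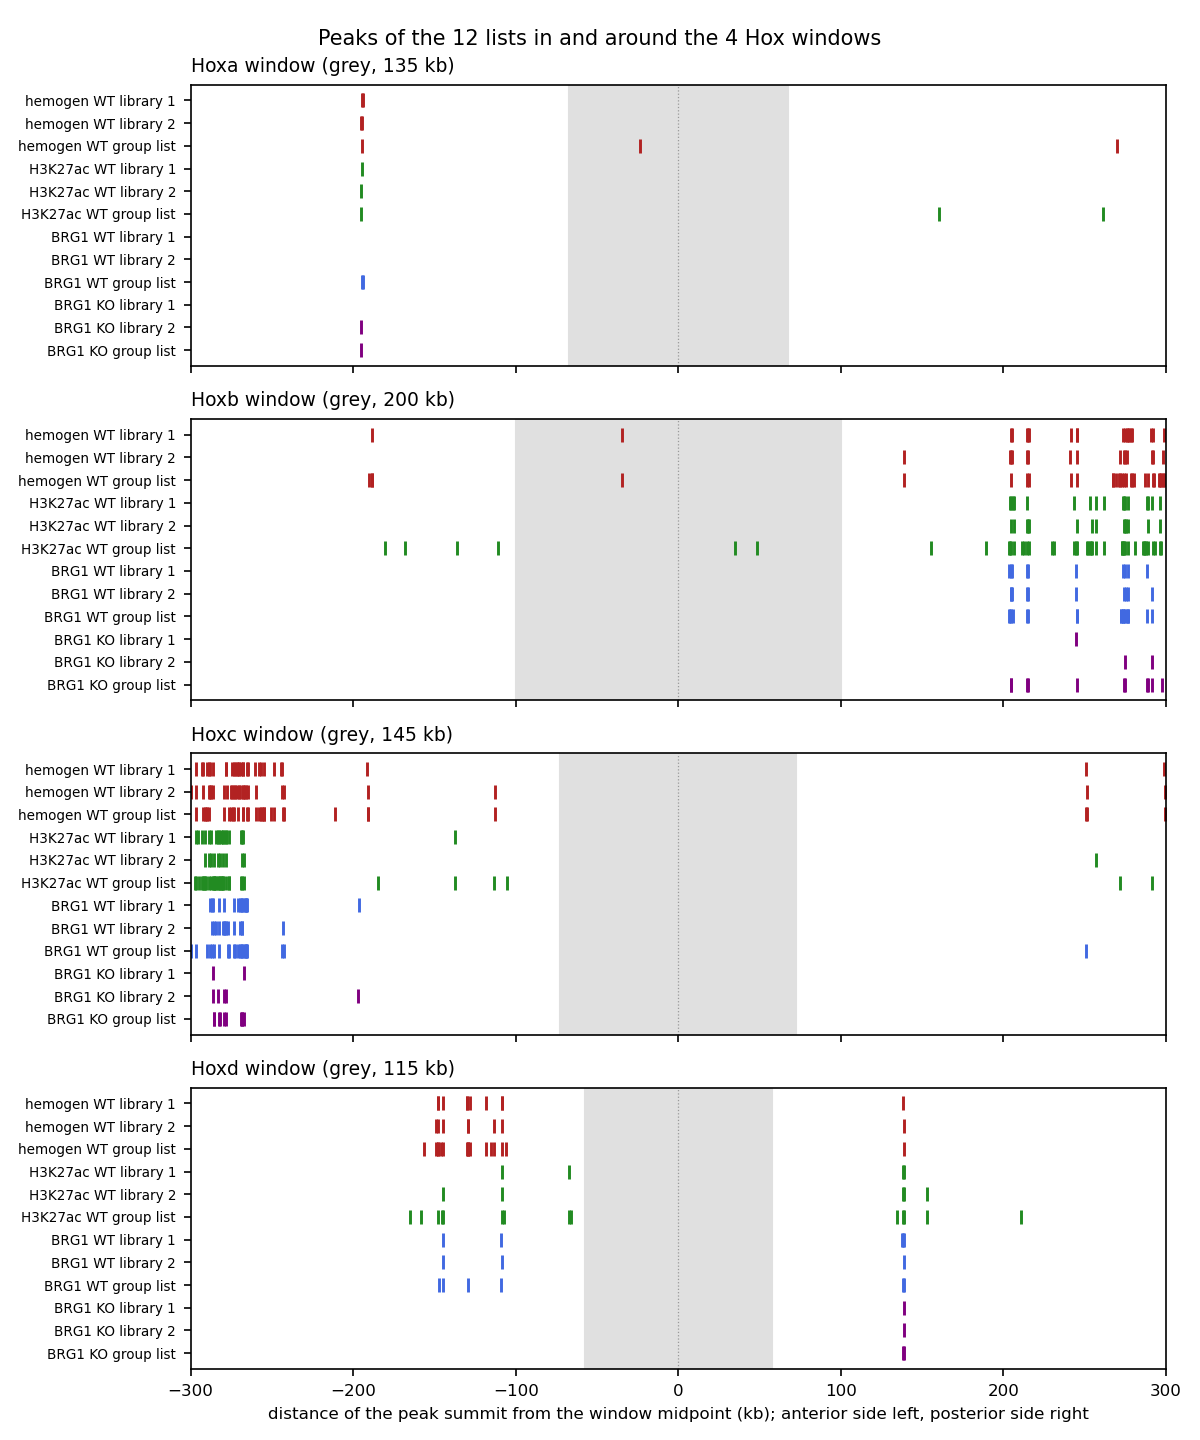
Summits of all peaks within 300 kb of each window's midpoint (horizontal axis, kb, anterior side left), 1 row for each of the 12 lists. The grey windows hold 5 marks in all, while dense columns of marks shared by several lists stand beyond the posterior end of Hoxb and the anterior end of Hoxc.

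The WT BRG1 regions nearest to the windows showed what the lists record when a site is called. A region is a merged peak found in both WT libraries, and the nearest on each side of each window gave 8 regions. All 8 had a hemogen peak in both libraries, as did 95.2% of the 13213 WT BRG1 regions, and 7 had H3K27ac in both, against 63.2% of all regions. No test was made of these counts. They lay between 50.7 kb (Hoxd, anterior side) and 669 kb (Hoxa, anterior side) from the window.

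Hoxd had its nearest regions close by, 50.7 kb from the window on the anterior side and 80.5 kb on the posterior side. The region beyond its posterior end, chr2:74577957-74579471, had a peak in all 12 lists. Its fold was 4.64 and 5.24 for hemogen, 3.67 and 4.22 for H3K27ac, 5.3 and 5.46 for WT BRG1, and 5.59 and 3.65 for KO BRG1 in libraries 1 and 2. WT and KO folds come from lists of unequal length and are given side by side only. The region beyond its anterior end, chr2:74825721-74826664, had a BRG1 fold of 3.92 and 6.08 in the WT libraries and no peak in any KO list. Its hemogen fold was 4.49 and 4.12 and its H3K27ac fold 2.71 and 5.77.

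The region with the highest WT BRG1 fold of the 8, chr6:51469915-51471447 on the anterior side of Hoxa, also had a peak in all 12 lists. Its BRG1 fold was 8.53 and 7.49 in the WT and 4.47 and 3.11 in the KO libraries. Of the 8 regions, 6 overlapped a peak of some KO list, 3 a peak of a KO library and 2 peaks of both KO libraries. Over all WT BRG1 regions these shares were 55.3%, 35.3% and 12.1%, and no test was made of the 8 against them.

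**Figure D5:**
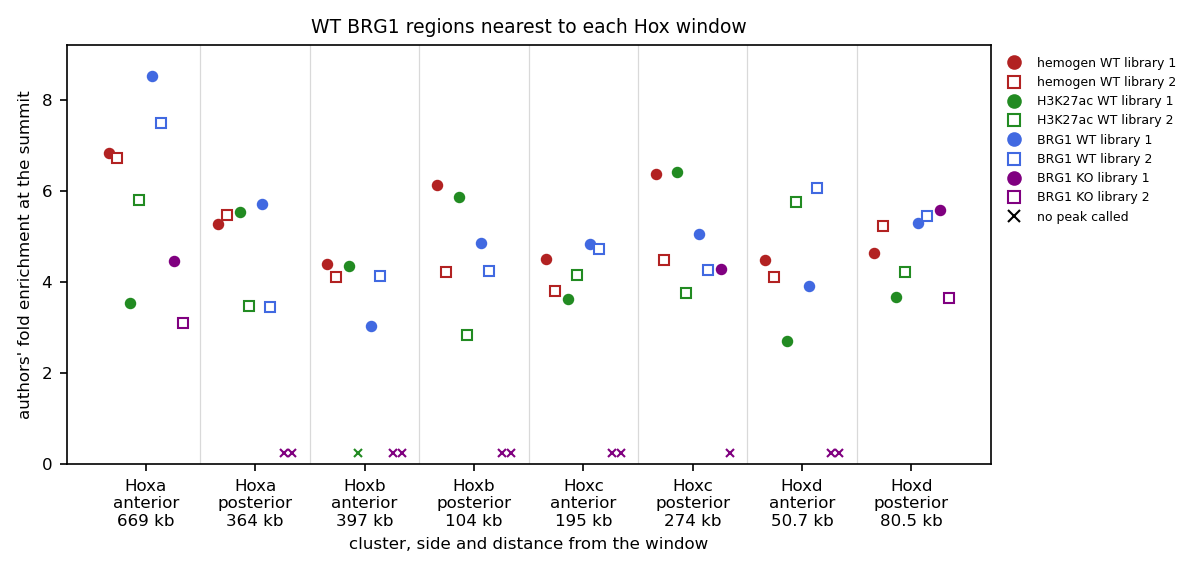
The authors' fold at the summit (vertical axis, linear) in the 8 library lists for the WT BRG1 region nearest to each side of each Hox window, with crosses near 0 for no peak called. The Hoxd posterior and Hoxa anterior regions have points in all 8 libraries, while 5 of the 8 regions have crosses in both KO libraries.

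Inside the windows there was no BRG1 peak to lose in the KO. The number was 0 and 0 in the WT and 0 and 0 in the KO libraries, and values that are all equal allow no test. In the 500 kb flanks the WT libraries held 97 and 71 BRG1 peaks and the KO libraries 12 and 19. That is 84 ± 18.4 against 15.5 ± 4.95 (SD, n = 2 libraries each), and the groups did not overlap (exact two-sided permutation test, p = 0.33, the smallest that 2 against 2 libraries can give). The ratio of 5.42 was close to the 5.4 of the whole lists. With each BRG1 list trimmed to its strongest 3205 peaks, the length of the shortest, the flanks held 9 and 12 WT and 12 and 12 KO peaks.

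Of the KO library peaks in the flanks, 11 of 12 in library 1 and 16 of 19 in library 2 overlapped a WT library peak. Over the whole lists 96.2% of the peaks of KO library 1 and 93% of those of KO library 2 did so. Of the other 4, 2 overlapped a peak of the WT BRG1 group list and 2, both in KO library 2, overlapped no WT BRG1 peak. These 4 had a −log10 p between the percentiles 4.16 and 74 of their lists, the highest beyond the anterior end of Hoxa. There, at chr6:52011996-52012485 and 128 kb from the window, KO library 2 had a BRG1 fold of 6.44 and the KO group list 5.05, while KO library 1 and all 3 WT BRG1 lists had no overlapping peak. The nearest peak of the WT BRG1 group list lay beside it, 126 kb from the window. Hemogen (4.89 and 3.84) and H3K27ac (3.22 and 2.58) were called at this site in both WT libraries. It was singled out after its values were seen, and only 1 of 2 KO libraries holds it.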

How the data were processed

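Peaks came from chromatin immunoprecipitation sequencing of fetal liver. MACS2 2.2.7.1, Bowtie2 2.3.5, Picard 2.21.4 and SAMtools 1.9 stand in the submitters' processing notes, without roles. Per the labels' protocols, libraries were made by tagmentation or by ligation; which served each is not stated. The authors deposited, for each peak, a fold over local background (a ratio), a −log10 p and a −log10 q; no reads, counts or signal were used here, so depth inside the windows is unknown and an uncalled site is not thereby unbound. No source used here gives the build; sequence names and positions match mm10, the build of the windows.

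Peaks on 20 chromosomes (19 autosomes and X) were kept. A peak was assigned by its summit to the anterior or posterior side of a window's midpoint. Regions are merged peaks with at least 1 peak in both libraries. Percentiles rank −log10 p within a list. The globin and Alb windows came from general knowledge of mm10. Tiles start at the first peak of a chromosome. The windows, lists and tests were chosen with earlier results of these data known; the flank comparison and nearest regions were added after the windows proved empty. All peaks in the windows are named, as a rule for 30 or fewer required. A mouse annotation and sequence were not used here, so peaks were placed by position, and the planned lists of Hox cofactors, regulators and marker genes were not run. Interval functions were tested on simulated data. Python 3.11.15, NumPy 2.4.6, pandas 2.3.3 and Matplotlib 3.10.9 were used.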

Additional observations from a re-analysis of the deposited data

How the results depend on the processing

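With 0 BRG1 peaks in the windows in WT and KO, a stricter −log10 q of 5, shorter lists, a left-out library or the replicate block could only give a difference of 0 again, and say nothing about stability. Windows widened by 50 kb, which could have gained peaks, also held 0. Same-numbered libraries share only a number. Widening the windows by 100 kb, chosen after the data were seen, gave a difference of 3 peaks (5 and 3 in WT, 1 and 1 in KO). The means were 4 and 1 (exact two-sided permutation test, p = 0.33), beside a WT to KO ratio of 5.4 over the whole lists. Group lists gave 2 hemogen and 2 H3K27ac peaks in the windows in place of 0 regions, and 0 BRG1 peaks. Leaving out 1 hemogen library gave 0 to 1. The excess of anterior over posterior peaks in the library lists, 1 peak, was 0 at a −log10 q of 5, 0 to 1 with 1 library left out (0 without hemogen library 1), 0 in group lists and 241 bp as covered length. In the 500 kb flanks the WT minus KO difference of 68.5 BRG1 peaks turned to -1.5 in lists of equal length. It was 36.5 at a −log10 q of 5, 55.5 to 81.5 with 1 library left out, and 68.5 with the replicate block (exact permutation p = 0.5, the smallest that 2 pairs allow). Equal list length does not equal depth. The planned shares of window regions with another mark, and their 50% overlap alternative, have no value, since no region lies in a window. Depth was not measured here, so an absence from a list may reflect it, and WT and KO depth were not compared.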
